A study of Mus musculus with 6 samples.

Results

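The regulators of slow myosin transcription examined here were 10 genes whose proteins bind or act through the promoters of the slow myosin heavy chain genes, namely Sox5, Sox6, Pura, Purb, Sp1, Sp3, Med13, Thra, Thrb and Tead1. Every probe set paired with exactly 1 platform gene symbol was taken if that symbol was 1 of these names, which gave 13 of the 35556 probe sets on the array. All 10 genes were represented, Purb, Sp3 and Tead1 by a pair of probe sets each, and no probe set with several symbols carried a member. The arrays cover ventricles of 17-day-old mice, taken from 3 transgenic mice of line 17 (TG-17), which express mouse miR-499 in heart muscle cells from the alpha-myosin heavy chain (Myh6) promoter, and from 3 wild-type (WT) littermates, and the RNA of each mouse was hybridized to 1 Affymetrix mouse gene array. TG-17 is a single line, made by injection of FVB/NCrl embryos, and the sources used here describe no treatment of these mice. The values are log2 values per probe set after RMA, which corrects background and normalizes between arrays.

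In the mouse heart the slow isoform Myh7 is the main ventricular myosin heavy chain before birth and gives way to the fast isoform Myh6 as thyroid hormone rises. Sox6, Pur-alpha, Pur-beta and Sp3 are known as repressors of slow myosin genes in striated muscle, liganded thyroid hormone receptors repress Myh7 and activate Myh6, and Tead1 activates muscle genes through the MCAT element. MicroRNAs encoded within myosin genes, miR-208a in Myh6, miR-208b in Myh7 and miR-499 in Myh7b, are known to act on several of these regulators, with Sox6 and Purb among the proposed targets of miR-499 and Med13 a published target of miR-208a.

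The sequence that the transgene adds is shown with those of its relatives, because the seed, bases 2 to 8 from the 5′ end and given in capitals, is the part of a microRNA that pairs with a target.
mmu-miR-499-5p: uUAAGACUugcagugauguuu
mmu-miR-208a-3p: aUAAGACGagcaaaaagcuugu
mmu-miR-208b-3p: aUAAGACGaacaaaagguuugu
These are the mature RefSeq sequences of build GRCm38.p6, from chr2:155622893-155622913 (plus strand), chr14:54949072-54949093 (minus strand) and chr14:54975710-54975731 (minus strand). The seed of miR-499-5p shared 6 of 7 bases with that of both miR-208 forms, and the substitution was U8G, counted from 1 at the 5′ end with the base of miR-499-5p first. No other of the 1679 mature mouse microRNAs in the table had the full seed of miR-499-5p.

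The promoters on which these regulators act were searched for the core motifs of the proteins, on both strands and in the window from 250 bases before to 50 bases after a RefSeq start. The Tead core CATTCC occurred in the windows of Myh6 and Myh7 and is given below in capitals within the strand of the gene, where it reads in reverse, and the Sox core AACAAT occurred in Myh7 in both orientations. A thyroid receptor half-site, AGGTCA, read in reverse in Myh7b.
Myh6, Tead core: ttggggaggaGGAATGtgcccaagga
Myh7, Tead core: agtgagccgtGGAATGttagagatat
Myh7, Sox core: gccatgccacAACAATgacgaccact
Myh7, Sox core in reverse: accacttccaATTGTTtcctagctgg
Myh7b, half-site in reverse: tctcctttgcTGACCTtgacaacagc
In GRCm38.p6 these stretches lie at chr14:54966798-54966823, chr14:54994812-54994837, chr14:54994735-54994760 and chr14:54994715-54994740 on the minus strand and at chr2:155611187-155611212 on the plus strand. The Tead core began 206 bases before the start of Myh6 and 201 bases before the first of the 2 starts of Myh7, and the Sox cores began 124 and 104 bases before that start. Over all 32851 windows of this length, 14.7% held the Tead core, 10.7% the Sox core, 16.3% the half-site and 35.7% the GC box core GGGCGG that Sp proteins bind. The windows of Myh6, Myh7 and Myh7b did not hold the GC box core. It was the most frequent core in the members' own windows, in 7 of 14 windows. These 14 windows belong to 7 genes, with 6 from Sox6, and Pura, Thra and Tead1 had no window. No match of 1 of the 4 motifs overlapped a match of another. These matches describe the letters only.

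The transgene was read first as a check of the labels. Mir499 had log2 values of 9.31, 9.33 and 8.87 in TG-17 ventricles, against 5.48, 5.34 and 5.68 in WT ventricles. The TG-17 mean was 12.7-fold the WT mean, with a B of 4.25, and since the files hold no detection calls, the WT values may be background and the fold may be too small. B is the log odds of differential expression from limma, and a B above 0, one of the cut-offs that the study used, was the criterion for a rise or a fall. Over all probe sets 130 passed it, which is 0.366%.

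None of the 13 probe sets passed B above 0, and none passed an adjusted p under 0.05 from limma, which 0.00562% of all probe sets did. Without adjustment, limma gave 3 of them a p under 0.05 with a higher mean in TG-17 and 1 with a lower mean, beside 6.97% and 8.5% of all probe sets. The 3 higher ones were the brighter probe set of Purb and both probe sets of Tead1, and the lower one was the dimmer probe set of Sp3. In 3 probe sets every TG-17 mouse was above every WT mouse, and in 2 every TG-17 mouse was below, against 11.3% and 12.1% of all probe sets. The median log2 fold change over the 13 probe sets was -0.013, and that over all probe sets was -0.014. The plot of the members by mouse shows that the other 8 probe sets overlapped between the groups.

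**Figure D1:**
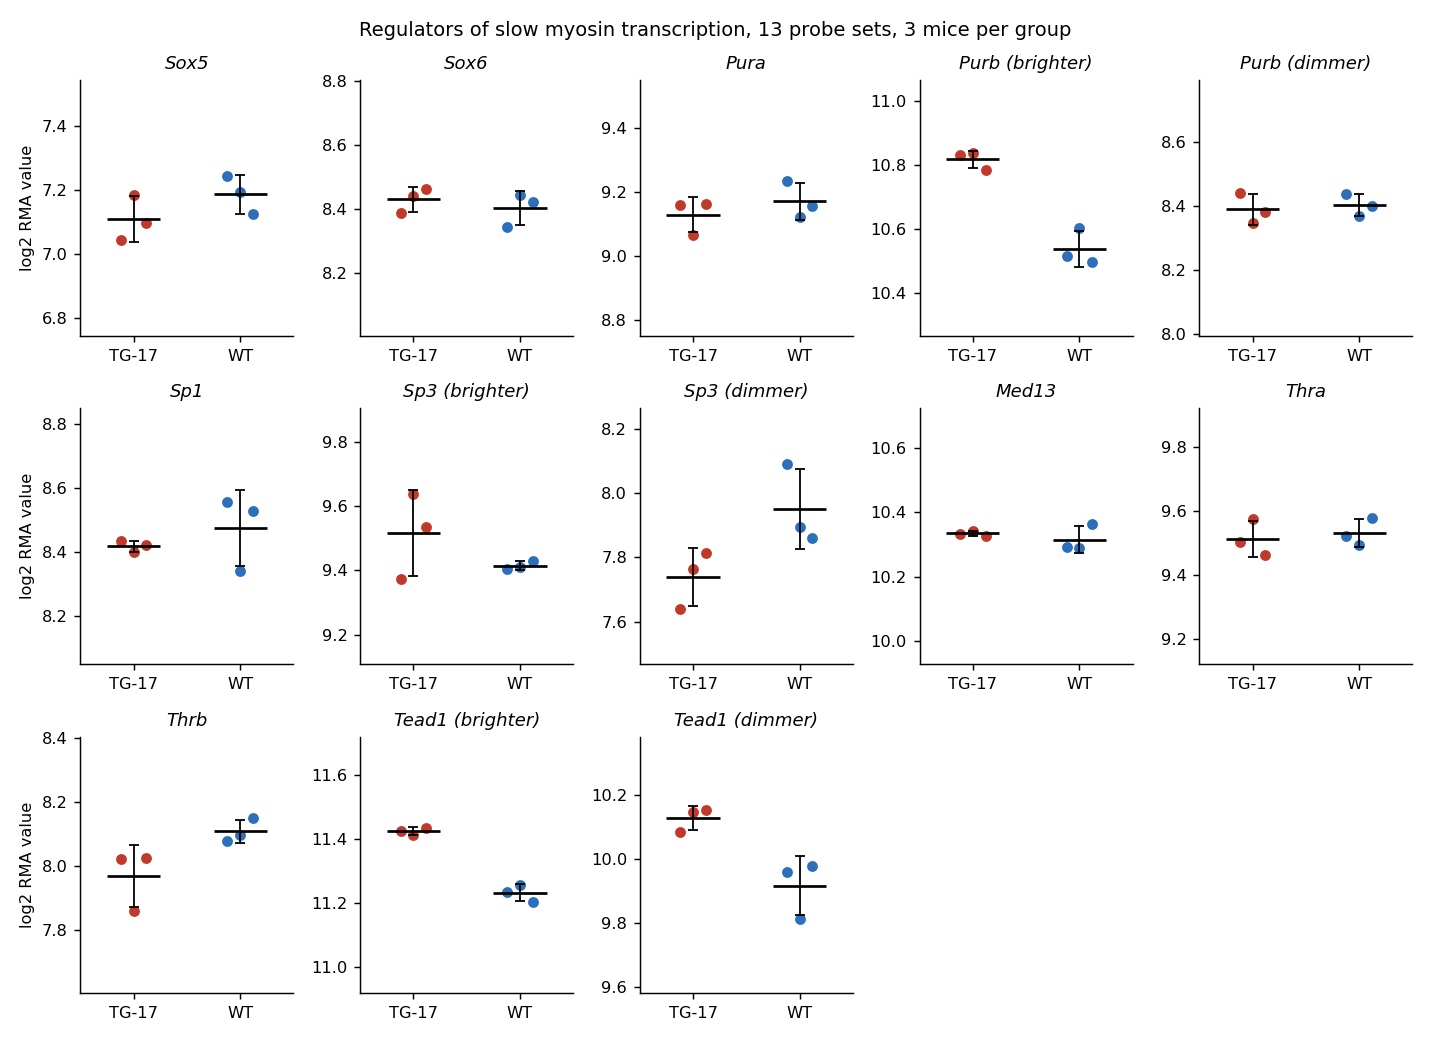
Log2 RMA values of the 13 probe sets in 3 TG-17 mice (red) and 3 WT mice (blue), 1 point per mouse, with the group mean as a bar and 1 SD as whiskers. Each panel spans the same range on its log2 axis. The groups separate upwards for the brighter Purb probe set and both Tead1 probe sets, and downwards for the dimmer Sp3 probe set and Thrb.

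Tead1 encodes a transcriptional enhancer factor that binds MCAT elements of cardiac and slow muscle genes. Its brighter probe set had log2 values of 11.43, 11.41 and 11.44 in TG-17 mice, against 11.24, 11.26 and 11.20 in WT mice. The groups did not overlap, and the gap between the lowest TG-17 mouse and the highest WT mouse was 0.15 on the log2 scale. The log2 fold change was 0.19 (standard error, SE, of 0.047, 95% interval 0.079 to 0.31), or 1.14-fold, and limma gave a B of -1.82 and an adjusted p of 0.229. After a second quantile normalization of the arrays this log2 fold change was 0.104, with an unadjusted p of 0.104 from limma. The dimmer probe set had log2 values of 10.08, 10.15 and 10.15 in TG-17 mice, against 9.96, 9.81 and 9.98 in WT mice. These groups did not overlap either, and the log2 fold change was 0.21 (SE 0.064, 95% interval 0.055 to 0.37), or 1.16-fold (adjusted p = 0.260 from limma). The platform pairs each of the Tead1 probe sets with 3 RefSeq transcripts. Their log2 fold changes differed by -0.018, brighter minus dimmer, which is within the spread of that difference between mice (exact permutation test, two-sided p = 0.90, n = 3 mice per group).

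Purb encodes Pur-beta, a single-strand binding protein that represses Myh7 transcription in muscle. Its brighter probe set had log2 values of 10.83, 10.84 and 10.79 in TG-17 mice, against 10.52, 10.60 and 10.50 in WT mice. This probe set had the smallest unadjusted p of the 13 and a gap of 0.18 on the log2 scale between the groups. TG-17 ventricles were 1.21-fold higher (95% interval 1.11 to 1.33), and limma gave a B of -0.73 and an adjusted p of 0.224. It passed B above 0 in 4 of 15 alternative settings and did not pass in any of the 6 with a mouse left out. The dimmer probe set had log2 values of 8.44, 8.35 and 8.38 in TG-17 mice, against 8.44, 8.37 and 8.40 in WT mice. Here the groups overlapped almost fully, with a log2 fold change of -0.013 (95% interval -0.14 to 0.11).

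The unequal change of the Purb pair was measured within each array. The brighter value minus the dimmer value was 2.39, 2.49 and 2.41 on the log2 scale in TG-17 mice, against 2.08, 2.23 and 2.10 in WT mice. The groups did not overlap, and the mean difference was 0.29 (exact permutation test, two-sided p = 0.10, the smallest that 3 against 3 mice allow, and 0.15 after Benjamini-Hochberg adjustment over the 3 pairs of probe sets). The platform pairs each of these probe sets with 1 RefSeq transcript, and the data give no single value for Purb.

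Pura encodes Pur-alpha, the partner of Pur-beta at purine-rich elements. Pura had log2 values of 9.16, 9.07 and 9.16 in TG-17 mice, against 9.23, 9.12 and 9.16 in WT mice. The groups overlapped and the log2 fold change was -0.042 (95% interval -0.18 to 0.098).

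Sox6, the SoxD factor that represses slow fiber genes in skeletal and cardiac muscle, had log2 values of 8.39, 8.44 and 8.46 in TG-17 mice, against 8.34, 8.44 and 8.42 in WT mice. The values of the groups interleaved, and the 95% interval of the fold ran from 0.931 to 1.12. Sox5, its closest relative, had log2 values of 7.04, 7.19 and 7.10 in TG-17 mice, against 7.24, 7.19 and 7.12 in WT mice. The Sox5 log2 fold change was -0.078 (SE 0.062, 95% interval -0.23 to 0.073, adjusted p = 0.574 from limma), and the groups overlapped.

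Sp1 and Sp3 bind the same GC box, Sp1 mostly as an activator and Sp3 as an activator or a repressor. Sp1 had log2 values of 8.43, 8.40 and 8.42 in TG-17 mice, against 8.56, 8.34 and 8.53 in WT mice. WT mouse 2 lay below the TG-17 mice and the other WT mice above them, and the log2 fold change was -0.056 (95% interval -0.23 to 0.12). Sp3 had log2 values of 9.37, 9.64 and 9.53 in TG-17 mice, against 9.40, 9.41 and 9.43 in WT mice, at its brighter probe set. The TG-17 mice were spread on both sides of the WT mice, with an SD of 0.13 in TG-17 and 0.014 in WT, and the log2 fold change was 0.10 (95% interval -0.085 to 0.29). This value rested on single mice, at 0.172 with an unadjusted p of 0.036 from limma without TG-17 mouse 1, and at 0.0394 without TG-17 mouse 2. The dimmer Sp3 probe set had log2 values of 7.64, 7.76 and 7.81 in TG-17 mice, against 8.09, 7.89 and 7.86 in WT mice.

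The dimmer Sp3 values did not overlap between the groups, with a gap of 0.049 on the log2 scale, and TG-17 was 1.16-fold lower (log2 fold change -0.21, SE 0.084, adjusted p = 0.314 from limma). Its unadjusted p stayed under 0.05 in 8 of 15 alternative settings, and without WT mouse 1 its log2 fold change was -0.14. The platform pairs the brighter Sp3 probe set with 2 RefSeq transcripts and the dimmer one with 1 sequence record and 0 RefSeq transcripts. Within arrays the brighter value minus the dimmer value was 1.74, 1.88 and 1.72 on the log2 scale in TG-17 mice, against 1.31, 1.51 and 1.57 in WT mice, a mean difference of 0.31 (exact permutation test, two-sided p = 0.10, the smallest possible here). As for Purb, this difference did not overlap between the groups. In the RefSeq table the long noncoding RNA gene Sp3os and a pseudogene overlap Sp3, and long noncoding RNA genes overlap Sox5, Sox6 and Med13. A small nucleolar RNA gene also overlaps Med13. The protein-coding genes Nr1d1 and LOC115488350 overlap Thra and Thrb, respectively. The sources used here do not give the strand that the probe sets read.

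Thrb and Thra encode the thyroid hormone receptors beta and alpha, of which alpha is the main form in heart muscle. Thrb had log2 values of 8.02, 7.86 and 8.03 in TG-17 mice, against 8.08, 8.10 and 8.15 in WT mice. Every TG-17 mouse was below every WT mouse, by a gap of 0.052 on the log2 scale, but the 95% interval of the log2 fold change, -0.30 to 0.019, included 0 (log2 fold change -0.14, adjusted p = 0.367 from limma). Thra had log2 values of 9.50, 9.57 and 9.46 in TG-17 mice, against 9.52, 9.49 and 9.58 in WT mice. The groups overlapped, with a 95% interval of the fold from 0.900 to 1.08. Med13, a subunit of the Mediator kinase module that modulates nuclear receptor transcription in the heart, had log2 values of 10.33, 10.34 and 10.33 in TG-17 mice, against 10.29, 10.29 and 10.36 in WT mice. The Med13 interval was among the narrowest of the 13, with a fold of 0.934 to 1.10.

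**Figure D2:**
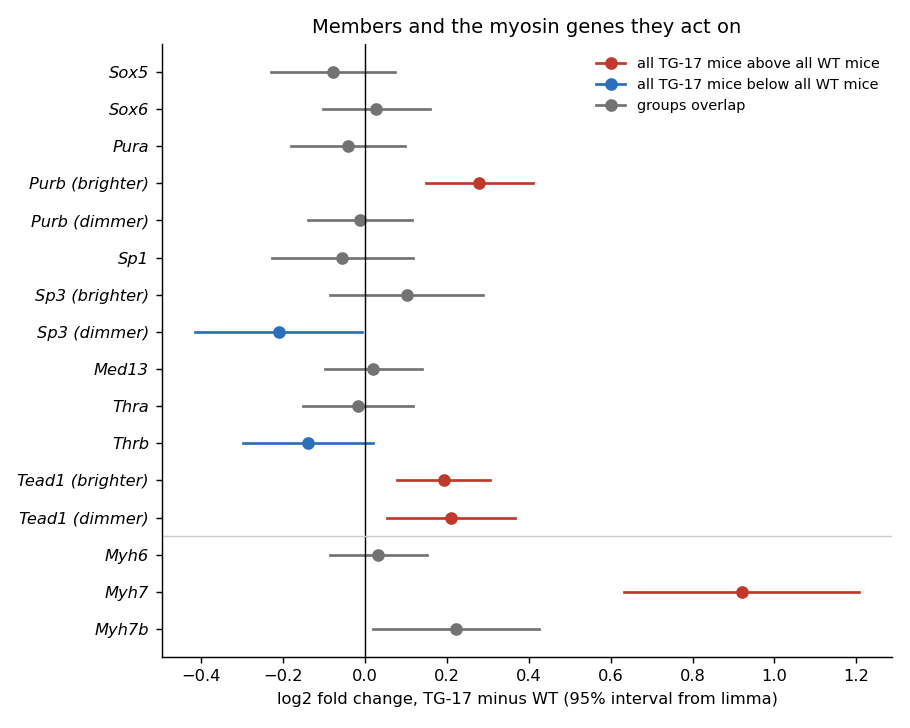
Log2 fold change of TG-17 against WT (points) with its 95% interval from limma (lines) for the 13 probe sets and for the myosin heavy chain genes Myh6, Myh7 and Myh7b, 3 mice per group. Red and blue mark probe sets whose groups do not overlap. Of the members, the interval leaves out 0 for the brighter Purb probe set, both Tead1 probe sets and the dimmer Sp3 probe set, and the highest of them, the brighter Purb probe set, lies at 0.28 against 0.92 for Myh7.

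The genes on which these regulators act gave the scale for these values. Myh7 had log2 values of 10.01, 10.06 and 10.17 in TG-17 mice, against 9.28, 8.90 and 9.29 in WT mice. It rose 1.89-fold (95% interval 1.55 to 2.31) with a B of 1.08, at an adjusted p of 0.200 from limma. Without TG-17 mouse 1, 2 or 3 Myh7 did not pass B above 0, at log2 fold changes of 0.95, 0.93 and 0.88. Myh6 had log2 values of 13.96, 14.00 and 13.94 in TG-17 mice, against 13.90, 13.94 and 13.96 in WT mice. The Myh6 groups overlapped, as did those of Myh7b, whose log2 fold change was 0.22 (SE 0.083, B of -3.56). The transgene was cloned from the DNA around miR-499, which lies within Myh7b. Whether the Myh7b probe set reads transgene RNA was not tested. On the log2 scale the difference of the brighter Purb probe set, the highest of the 13, was 0.28 and that of Myh7 was 0.92.

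Relatives and partners of the members were counted by gene lists, with the brightest probe set standing for each gene. Over all 19938 genes counted in this way, 0.13% were higher and 0.211% lower at B above 0, 6.65% higher and 8.76% lower with an unadjusted p below 0.05, and the median log2 fold change was -0.018. Of 12 genes of slow and developmental muscle isoforms, 1 rose, which was Myh7, and none fell. At the unadjusted p 3 were higher and none lower, with Myoz2, a Z-disc protein that binds calcineurin, at a log2 fold change of 0.25 (SE 0.057, B of -1.57) and Myh7b. The slow troponins Tnni1 and Tnnt1 had log2 fold changes of 0.042 and -0.14, and the list had a median of 0.061.

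Of 6 other Sox genes 1 rose, which was Sox17, a factor of endothelial cells, at 1.37-fold (log2 SE 0.066, B of 0.50, adjusted p = 0.205 from limma). Sox17 had a log2 value of 7.996 ± 0.067 in TG-17 and 7.546 ± 0.080 in WT ventricles (SD, n = 3 each). It did not pass B above 0 when any 1 of the 6 mice was left out, at log2 fold changes of 0.41 to 0.49. Sox18, also endothelial, had a log2 fold change of 0.33 (SE 0.099, B of -2.70), and Sox4 one of -0.36 (SE 0.13, B of -3.50). Of the 6 endothelial markers none passed the unadjusted p, and their summed log2 level was 13.20 to 13.21 in TG-17 and 13.18 to 13.23 in WT mice. Neither the 4 partners of the Pur proteins nor the 5 other Sp genes had a member at the unadjusted p, and their log2 fold changes ran from -0.036 to 0.080 and from -0.059 to 0.045.

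Of 11 Mediator genes none passed B above 0, and at the unadjusted p 1 was higher, Cdk8, the kinase of the module to which Med13 belongs (log2 fold change 0.18, SE 0.068). Of 17 genes of thyroid hormone transport, activation and receptor partners none passed B above 0, and at the unadjusted p 5 were higher and 1 was lower. Among the 5 were Thrsp, a thyroid-responsive lipogenic gene (log2 fold change 0.24, SE 0.065), the corepressor subunit Tbl1x (0.26, SE 0.074) and the partner receptor Rxra (0.13, SE 0.048). The median of this list was 0.00035, and without TG-17 mouse 2 or 3 or WT mouse 2 only 2 genes were at the unadjusted p, and without WT mouse 1 only 3.

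Of 13 thyroid-responsive genes of the heart 1 rose at B above 0, again Myh7, and at the unadjusted p 2 were higher and 2 lower. Known as a gene that thyroid hormone raises, the pacemaker channel gene Hcn2 had log2 values of 8.44 ± 0.093 in TG-17 and 8.85 ± 0.077 in WT ventricles (SD, n = 3 each), a log2 fold change of -0.41 (SE 0.072, B of -0.30). The potassium channel gene Kcna5 had a log2 fold change of 0.38 (SE 0.14, B of -3.47), which was 0.224 without WT mouse 1. Without TG-17 mouse 1, 2 or 3 the unadjusted p of Kcna5 from limma was 0.0579, 0.0628 and 0.0921. The other lower gene at the unadjusted p was Ucp3, with a log2 fold change of -0.28 (SE 0.11). The calcium pump gene Atp2a2 and its inhibitor Pln, both responsive to thyroid hormone, had log2 fold changes of -0.025 and -0.0022.

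Of 13 relatives, coactivators and known target genes of Tead1 none passed B above 0, and at the unadjusted p 3 were higher and 1 was lower. Ankrd1, a cardiac ankyrin repeat gene and a target of the Tead coactivator Yap1, came closest, at 13.24 ± 0.033 in TG-17 and 12.79 ± 0.13 in WT ventricles on the log2 scale (SD, n = 3 each), or 1.36-fold (B of -0.20). Ccn2, a secreted matricellular protein and another such target, had a log2 fold change of 0.29 (SE 0.12), while its relative Ccn1, also a target, had one of -0.25 (SE 0.11, unadjusted p = 0.0631 from limma). The coactivator gene Wwtr1, also among the 3 higher genes, had a log2 fold change of 0.15 (SE 0.060). The coactivator gene Vgll1 had a log2 fold change of -0.23 (SE 0.068). Tead2, Tead3 and Tead4 had log2 fold changes of 0.0066, -0.078 and 0.11, none at the unadjusted p. Of 22 other published regulators of slow myosin genes none passed B above 0 and 2 were higher at the unadjusted p. These were the ubiquitin ligase gene Trim63 (log2 fold change 0.26, SE 0.054, B of -1.01) and Tbx15 (0.19, SE 0.063). Mean log2 values were 5.96 in TG-17 and 5.77 in WT for Tbx15, and 6.02 and 6.25 for Vgll1. All lay below the array medians, which were 6.89 to 6.91 in TG-17 and 6.93 to 6.95 in WT, so these 2 genes may be near background. Several of these list counts fell when 1 mouse was left out. Over all probe sets the share with an unadjusted p under 0.05 from limma then fell as well, to 11% to 15.1% from 15.5%. The 4 Sox genes at the unadjusted p were 2 without TG-17 mouse 2 or 3 or WT mouse 1 or 2, the 4 thyroid-responsive genes were 2 without TG-17 mouse 2 or 3, and the 4 Tead relatives and targets were 2 without TG-17 mouse 2 or WT mouse 1 or 2. Cdk8 had an unadjusted p under 0.05 only without TG-17 mouse 1 or WT mouse 1 of the 6 mice left out in turn, at log2 fold changes of 0.139 to 0.223 over the 6, and 1 of the 22 regulators was left without TG-17 mouse 2 or WT mouse 3.

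**Figure D3:**
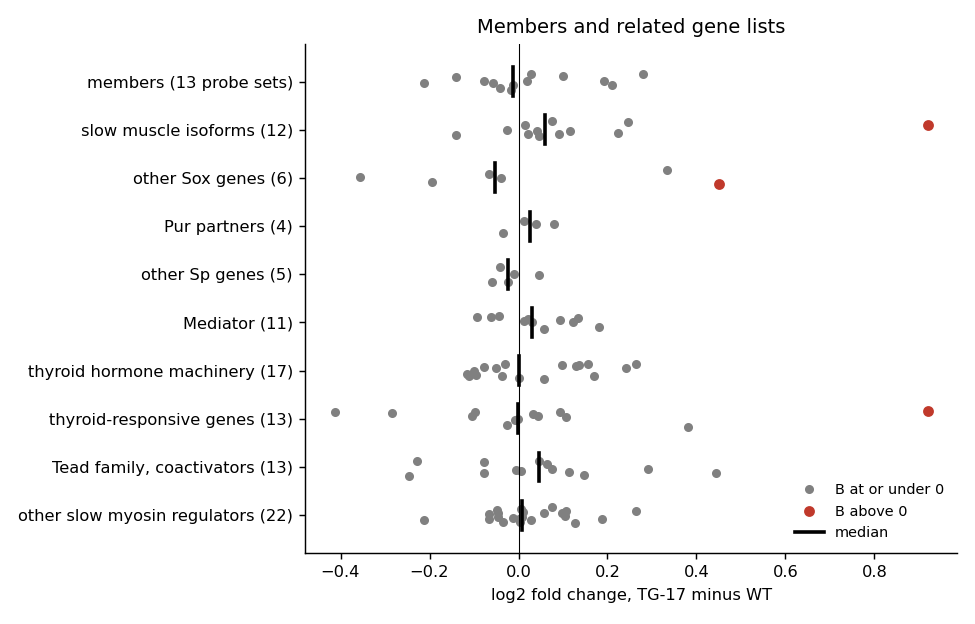
Log2 fold changes of TG-17 against WT for the 13 member probe sets and for 9 lists of related genes, 1 point per probe set or gene, with the number in brackets and the median as a bar. Red points pass B above 0, and these are Myh7, which stands in the slow isoform and the thyroid-responsive lists, and Sox17.

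For likeness, the brighter Purb probe set was compared with 19937 other genes over the 6 mice. Ociad1, Mtres1 and Wdr82 had the highest Pearson's r, at 0.999, 0.997 and 0.997, and 139 genes had an r over 0.95. The 6 points hold both groups, so that a difference between the groups in the same direction raises r, and the values are a description only.

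All 8 ventricular cardiomyocyte markers were measured, and their summed log2 level was 16.63 to 16.65 in TG-17 and 16.62 to 16.65 in WT mice, with none at the unadjusted p. Of 6 atrial markers 2 fell at B above 0, Myl4 and Myl7 (adjusted p = 0.205 from limma for each). At the unadjusted p 4 were lower, with a summed log2 level of 11.79 to 11.85 in TG-17 and 12.02 to 12.28 in WT mice. Of 6 smooth muscle and pericyte markers 3 were lower at the unadjusted p, with a summed log2 level of 13.49 to 13.53 in TG-17 and 13.58 to 13.67 in WT mice. The part of these shifts in the values of the regulators was not tested, and in whole ventricle fewer cells of a type and less RNA per cell cannot be told apart. No array stood apart by Pearson's r over all probe sets. It was 0.992 to 0.994 among TG-17 arrays, 0.992 to 0.993 among WT arrays and 0.990 to 0.992 across the groups. The array median was lower in every TG-17 array (6.89 to 6.91) than in every WT array (6.93 to 6.95).

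**Figure D4:**
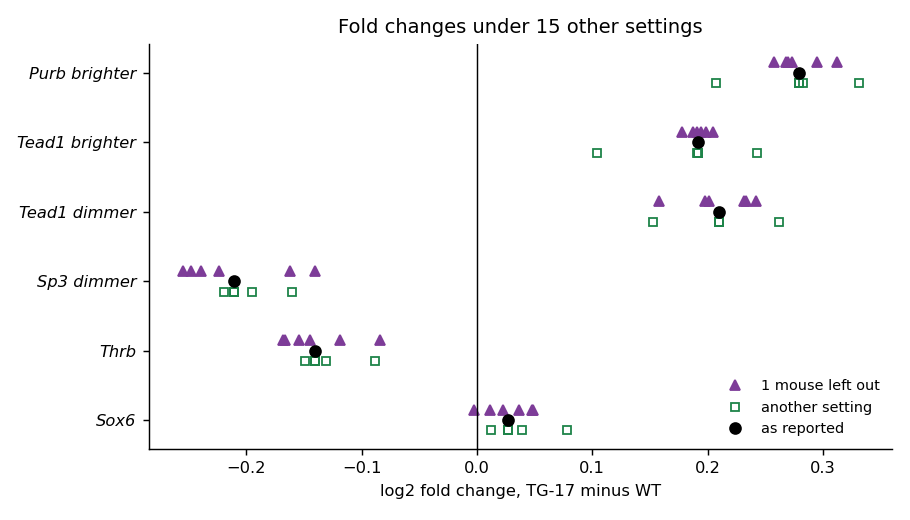
Log2 fold change of TG-17 against WT for 6 of the probe sets as reported (black), with 1 mouse left out (triangles) and under other settings (squares). The brighter Purb probe set and both Tead1 probe sets stay above 0 and the dimmer Sp3 probe set and Thrb stay below 0, while Sox6 lies on both sides of 0. Except for Sox6 the groups of these probe sets do not overlap, so leaving out a mouse cannot turn their sign.

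The groups of the brighter Purb probe set and of both Tead1 probe sets did not overlap, so leaving out a mouse could not turn their direction. Leaving out each mouse in turn gave log2 fold changes of 0.26 to 0.31 for the brighter Purb probe set, 0.178 to 0.205 for the brighter and 0.16 to 0.24 for the dimmer Tead1 probe set. For Thrb the range was -0.17 to -0.084, with the value nearest 0 without TG-17 mouse 2. The arrays measure RNA, and protein levels of these regulators are not covered.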

How the data were processed

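Ventricular RNA of 3 TG-17 mice and 3 WT littermates was hybridized by the authors to Mouse Gene ST arrays, 1 per mouse. The deposited table holds log2 values for each probe set, attributed in the submitters' processing notes to RMA, the version and filters of which were not given in the sources used here. All 35556 probe sets were used as deposited, and 0 columns of values were left out. Groups came from the sample titles. Since the mice are separate animals, the spread is that between mice.

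Probe sets were named through the platform annotation, in which 21789 had 1 symbol, 1621 several and 12146 none, checked by Entrez identifier against RefSeq (GRCm38.p6), which gave 0 changes. The groups were compared by limma (version 3.58.1, under R 4.3.3, with lmFit and eBayes without a trend, assumed share 0.01) on all probe sets with Benjamini-Hochberg adjustment. The script was tested on simulated data. Differences between a gene's probe sets were tested by exact permutation over 20 groupings of the mice. The arrays give no counts or detection calls, and their number limits the precision.

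Members, lists and motifs were chosen with earlier results of these data known. Named were all members, Mir499, the 3 myosin genes, up to 3 genes per list with the smallest unadjusted p under 0.05, marker genes at B above 0 and 3 genes most like the leading probe set. Tnni1, Tnnt1, Atp2a2, Pln, Ucp3, Ccn1, Wwtr1 and the Tead relatives were named as well, after their values were seen. Endothelial, fibroblast, leukocyte, erythroid, skeletal muscle and nerve markers were also counted. Of these 6 lists, the skeletal muscle list had 1 gene that rose at B above 0, Acta1 (adjusted p = 0.0785 from limma). The other lists had none in either direction. Proteins were not analysed here.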

Additional observations from a re-analysis of the deposited data

How the results depend on the processing

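Over all probe sets 130 passed B above 0, against 287 with an intensity trend, 714 with an assumed share of 0.05, 69 with the replicate number as a block and 29 to 112 with 1 mouse left out. Of the 13 probe sets of the regulators none passed, against 1 when only probe sets above the median mean were tested, 1 after centring arrays on their medians and 1 with a share of 0.05, in each case the brighter Purb probe set, and 2 with an intensity trend, Purb and the brighter Tead1 probe set. At an unadjusted p under 0.05 there were 4, against 2 after a second quantile normalization, the brighter Purb and the dimmer Tead1 probe set, and 3 to 4 with 1 mouse left out. Signs turned only in values near 0. Centring gave 0.00945 for Pura, 0.0381 for the dimmer Purb probe set and 0.0335 for Thra, and the second quantile normalization gave -0.051 for Med13. With 1 mouse left out, Sox6 ranged from -0.00209 to 0.0486, the dimmer Purb probe set from -0.0389 to 0.00801, Thra from -0.0477 to 0.00749 and Myh7 from 0.792 to 0.986. Before centring, the array median was lower in every TG-17 array than in every WT array. Centring moved the median log2 fold change of all probe sets to 0.037, against -0.014 as reported.

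After centring within each group, same-numbered TG-17 and WT mice had r of 0.024, -0.00044 and 0.057 over all probe sets. Mice with unlike numbers had r from -0.0574 to 0.0335. With 3 mice per group these values cannot decide whether the numbers pair the mice, and the sample titles do not say. With the replicate number as a block none of the 13 probe sets passed B above 0, and 3 had an unadjusted p under 0.05, since that of the dimmer Sp3 probe set was 0.101 in limma with the block. Sox17 no longer passed B above 0 with the block, Cdk8 had an unadjusted p of 0.0875 in limma, and 2 genes of the thyroid transport and partner list were left at the unadjusted p, against 6 as reported. The cause of these changes was not tested.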
